A study of Mus musculus with 8 samples.

Results

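The 10 genes described here encode the enzymes and adaptors that write and read methylation of histone H3 at lysine 9 (H3K9): the SUV39 enzymes Suv39h1 and Suv39h2, G9a and GLP (Ehmt2 and Ehmt1), Setdb1 with its partners Trim28 and Resf1, and the HP1 proteins (Cbx1, Cbx3 and Cbx5). They are the rows of the deposited table that carry these gene symbols, 10 of 22322 genes, and each symbol matched 1 row. The set was drawn up by family with the Ad-Cre and Ad-GFP counts known, and Resf1 was chosen by its count difference, much lower in Ad-Cre, so the differences between the groups below are a description of these genes and no p-value is given for them.

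RNA sequencing was done on 4 Ad-Cre and 4 Ad-GFP samples labelled as primary renal fibroblasts from mouse kidney. The Ad-Cre samples received an adenovirus carrying Cre recombinase and have the genotype label suv39h1 knockdown. The Ad-GFP samples received an adenovirus carrying green fluorescent protein and have the genotype label WT. Virus and genotype label coincide in all 8 samples, so effects of the virus cargo and of the genotype cannot be told apart. Both groups were treated with TGF-β, a cytokine that activates fibroblasts, at 5 ng/ml for 48 hours, so there is no unstimulated group in the comparison. The sources used here give neither the allele on which Cre acts, nor the share of cells infected, nor the age and strain of the mice. No label says that the replicates are separate cultures or animals, so the errors cover only the spread between these samples.

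H3K9 methylation marks silent chromatin. SUV39H1 and SUV39H2 place the trimethyl mark at pericentromeric repeats, and the chromodomain of the HP1 proteins binds that mark and can bring more SUV39 enzyme with it. G9a and GLP work as a pair and place mainly the lower methylation states in gene-rich chromatin. SETDB1 is brought to endogenous retroviruses by TRIM28 (KAP1), which binds KRAB zinc finger proteins, and RESF1 is a SETDB1-binding protein known from mouse embryonic stem cells, where its loss weakens silencing of such elements. In kidney, G9a has been studied in mouse models of fibrosis, where TGF-β drives matrix production.

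The promoters of the pair of genes that were lower in Ad-Cre, and of the HP1 genes that were higher, are shown because they hold an annotated start of these genes. Each is 250 bases before to 50 bases after the RefSeq start site, from RefSeq on GRCm38.p6, read 5′ to 3′ on the strand of the gene. Suv39h1, Cbx5, Ehmt2 and Cbx3 have 2 RefSeq promoters each, and 1 window per gene was used here. Which start the transcripts used was not tested. Capitals mark CCAAT, the letters bound by NF-Y, on either strand (ATTGG on the other). Of the 10 genes 4 have such a match in this window, against 37.4% of 32851 RefSeq promoters.
Resf1 (chr6:149309164-149309463, plus strand): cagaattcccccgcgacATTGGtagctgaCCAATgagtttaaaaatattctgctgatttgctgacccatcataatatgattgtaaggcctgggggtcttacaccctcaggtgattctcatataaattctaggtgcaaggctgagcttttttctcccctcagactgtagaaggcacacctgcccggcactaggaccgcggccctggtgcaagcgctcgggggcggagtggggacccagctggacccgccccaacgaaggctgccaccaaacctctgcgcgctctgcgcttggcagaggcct
Suv39h1 (chrX:8074711-8075010, minus strand): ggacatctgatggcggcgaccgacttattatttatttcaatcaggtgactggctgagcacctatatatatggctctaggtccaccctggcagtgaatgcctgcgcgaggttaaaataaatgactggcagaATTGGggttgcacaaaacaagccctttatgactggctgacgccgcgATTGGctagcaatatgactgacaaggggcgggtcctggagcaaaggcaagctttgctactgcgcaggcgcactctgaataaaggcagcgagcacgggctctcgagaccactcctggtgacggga
Cbx5 (chr15:103239803-103240102, minus strand): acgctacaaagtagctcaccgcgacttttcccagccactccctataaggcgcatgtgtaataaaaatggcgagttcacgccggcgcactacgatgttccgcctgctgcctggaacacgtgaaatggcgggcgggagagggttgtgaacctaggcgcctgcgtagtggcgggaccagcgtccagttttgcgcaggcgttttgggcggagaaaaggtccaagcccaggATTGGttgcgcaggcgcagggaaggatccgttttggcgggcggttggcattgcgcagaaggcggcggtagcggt
Cbx1 (chr11:96788885-96789184, plus strand): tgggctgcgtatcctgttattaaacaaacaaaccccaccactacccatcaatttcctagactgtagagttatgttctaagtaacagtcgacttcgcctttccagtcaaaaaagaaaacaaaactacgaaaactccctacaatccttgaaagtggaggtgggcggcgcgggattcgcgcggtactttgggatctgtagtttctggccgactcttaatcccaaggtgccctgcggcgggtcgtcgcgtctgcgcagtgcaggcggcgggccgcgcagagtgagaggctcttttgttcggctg
The Resf1 window holds 2 matches, the Suv39h1 window 2, the Cbx5 window 1 and the Cbx1 window 0. The other match among the 10 is in Setdb1. The letters TTTCCCGC, TTTGGCGC, TTTCGCGC or TTTGCCGC, used here for E2F sites on either strand, occur in 2.27% of all promoters and in 1 of the 10, that of Cbx3. TTTGAA, the cell cycle homology region, occurs in 17.9% of all promoters and in 1 of the 10, that of Suv39h2. Resf1 and Suv39h1 have 13 and 15 CpG dinucleotides in these windows, and Setdb1, which was not called, also has 15. The range over the 10 genes is 13 to 34 against a median of 7 over all promoters. No overlap between these motifs occurs in the 10 windows.

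The libraries held 18006938 to 23940043 counts in Ad-Cre and 15879244 to 17930632 in Ad-GFP, with no overlap in depth between the groups. Levels are given as CPM, counts scaled to library size with TMM factors, with the mean ± SD over 4 libraries. Fibroblast markers were present, with all 8 listed markers detected, but Pdgfra averaged 4.24 CPM in Ad-Cre and 5.14 CPM in Ad-GFP, and the 8 epithelial markers summed to 4773 to 4838 CPM in Ad-Cre and 5280 to 5510 CPM in Ad-GFP against 468 to 541 and 731 to 779 CPM for the 8 fibroblast markers. Epithelial markers were thus the more abundant in samples labelled as fibroblasts. Over the 8 libraries together, the 2 most abundant markers of each list were Krt8 (1168 CPM in Ad-Cre and 1504 CPM in Ad-GFP) with Cldn4 (1099 and 1141 CPM), and Vim (167 and 252 CPM) with Col1a1 (131 and 207 CPM). In edgeR's quasi-likelihood fit of Ad-Cre against Ad-GFP, 5370 of 13337 genes tested passed an adjusted p of 0.05, which is 40.3%. Of the 10 genes, all of which were tested, 2 were called lower (20.5% of all genes were) and 3 higher (19.8% of all genes were). The members were chosen with this contrast known, so nothing is read from the count.

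Suv39h1 (ENSMUSG00000039231, GRCm38 X chromosome at 8061171 to 8074760, minus strand, protein-coding), the gene named in the Ad-Cre genotype label, was lower in Ad-Cre and still detected in every library. Its level was 25.3, 22.8, 21.6 and 22.6 CPM in Ad-Cre replicates 1 to 4, against 29.0, 27.8, 29.3 and 29.6 CPM in Ad-GFP replicates 1 to 4. Every Ad-Cre library was below every Ad-GFP library, and Ad-Cre replicate 1 was the nearest to them. The log2 fold change was -0.33 ± 0.056 (SE, n = 4 per group), 79.6% of Ad-GFP with a 95% interval of 73.5% to 86.2%. Of all genes tested, 12.2% had a log2 fold change as low or lower. In bulk RNA, fewer cells expressing a gene and less RNA per cell cannot be told apart.

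Suv39h2 (ENSMUSG00000026646, chromosome 2 at 3455815 to 3475031, minus strand), the paralog that places the same mark, was not called and was the lowest of the 10. It was at 8.39, 7.19, 8.31 and 8.38 CPM in Ad-Cre and 7.86, 8.08, 7.80 and 7.57 CPM in Ad-GFP. The groups overlapped through Ad-Cre replicate 2, and the level was 102.8% of Ad-GFP with a 95% interval of 89.9% to 117.6%, an interval that spans values below and above 100%. Set per length, Suv39h1 made up 73.95% ± 1.6 of the summed SUV39 FPKM in Ad-Cre and 78.3% ± 1.5 in Ad-GFP (SD, n = 4 each), and the groups did not overlap. The summed SUV39 FPKM was 11.05 ± 0.71 in Ad-Cre and 12.8 ± 0.14 in Ad-GFP. FPKM is the authors' count scaled by transcript length and library size.

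The SETDB1 arm held the largest difference of the 10, in Resf1. Resf1 (ENSMUSG00000032712, chromosome 6 at 149309414 to 149335663, plus strand) was at 74.4, 77.8, 78.1 and 72.3 CPM in Ad-Cre, against 146.5, 144.6, 150.0 and 137.6 CPM in Ad-GFP. The lowest Ad-GFP library stood at over 1.5 times the highest Ad-Cre library. The log2 fold change was -0.94 ± 0.033 (SE, n = 4 per group), which is 52.3% of Ad-GFP with a 95% interval of 49.9% to 54.8%, and 2.19% of the genes tested had one as low or lower. This is the value for which the gene was chosen.

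Neither the enzyme nor the corepressor of the same arm was called. Setdb1 (ENSMUSG00000015697, chromosome 3 at 95323525 to 95357202, minus strand), the methyltransferase, was at 77.3, 77.4, 74.4 and 71.5 CPM in Ad-Cre and 73.1, 74.1, 75.3 and 71.8 CPM in Ad-GFP. Trim28 (ENSMUSG00000005566, chromosome 7 at 12999114 to 13031035, plus strand), the KRAB corepressor and most abundant of the 10, was at 263.8, 240.0, 255.4 and 247.6 CPM in Ad-Cre and 253.9, 246.2, 254.8 and 254.9 CPM in Ad-GFP. The groups overlapped for both. Setdb1 was at 102.1% of Ad-GFP with an interval of 97.1% to 107.3%, and Trim28 at 99.6% with an interval of 95.9% to 103.5%.

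Of the G9a and GLP pair, G9a was called higher by a small amount and GLP was not called. Ehmt2, which encodes G9a (ENSMUSG00000013787, chromosome 17 at 34898469 to 34914052, plus strand), was at 125.3, 118.2, 119.8 and 115.1 CPM in Ad-Cre and 111.1, 108.5, 114.4 and 112.9 CPM in Ad-GFP. The highest Ad-GFP library lay just under the lowest Ad-Cre library, and the level was 107.0% of Ad-GFP (interval 102.4% to 111.7%), called higher. That call was lost without Ad-Cre replicate 1 (log2 fold change 0.075) and without Ad-GFP replicate 2 (0.083). Ehmt1, which encodes GLP (ENSMUSG00000036893, chromosome 2 at 24789928 to 24919614, minus strand), was at 92.3, 91.2, 92.0 and 90.7 CPM in Ad-Cre and 93.4, 95.5, 97.0 and 91.7 CPM in Ad-GFP. Its groups overlapped and it was not called, at 97.0% of Ad-GFP (interval 92.9% to 101.2%). Per length, G9a made up 51.9% ± 2.3 of the summed FPKM of the pair in Ad-Cre and 50.4% ± 1.3 in Ad-GFP (SD, n = 4 each), with overlap.

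Of the HP1 genes, 2 of 3 were called higher, each by a small amount, where 19.8% of all genes tested were called higher. Cbx1, which encodes HP1β (ENSMUSG00000018666, chromosome 11 at 96789127 to 96808640, plus strand), was at 76.3, 77.6, 78.2 and 80.3 CPM in Ad-Cre and 73.2, 67.8, 70.5 and 71.8 CPM in Ad-GFP. Cbx5, which encodes HP1α (ENSMUSG00000009575, chromosome 15 at 103191544 to 103239816, minus strand), was at 172.6, 169.0, 172.1 and 173.5 CPM in Ad-Cre and 157.4, 156.4, 162.5 and 156.2 CPM in Ad-GFP. Neither gene's groups overlapped, and the levels were 110.4% (interval 105.1% to 115.9%) and 108.7% (interval 104.8% to 112.6%) of Ad-GFP. Cbx3, which encodes HP1γ (ENSMUSG00000029836, chromosome 6 at 51470360 to 51483704, plus strand), was at 59.2, 66.0, 60.6 and 64.1 CPM in Ad-Cre and 62.8, 66.0, 61.2 and 58.8 CPM in Ad-GFP, with full overlap, and at 100.5% of Ad-GFP (interval 94.7% to 106.7%).

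Over the HP1 family, summed FPKM was 123.0 ± 5.2 in Ad-Cre and 116.0 ± 2.9 in Ad-GFP. The groups overlapped in this sum, with Ad-Cre replicate 1 at 117.8 and Ad-GFP replicate 1 at 119.4, and in the share of each paralog. HP1β made up 38.0% ± 1.3 of that sum in Ad-Cre and 37.4% ± 0.88 in Ad-GFP, HP1α 33.0% ± 1.4 and 31.4% ± 1.4, and HP1γ 29.0% ± 1.3 and 31.2% ± 1.9 (SD, n = 4 each). In all, 5 of the 10 genes had groups that did not overlap in CPM, against 35.4% of all genes tested, with Ad-Cre below in 2 (18.2% of all genes) and above in 3 (17.2%). On the deposited FPKM, limma called Resf1, Suv39h1 and Cbx1 and did not call Ehmt2 or Cbx5.

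**Figure D1:**
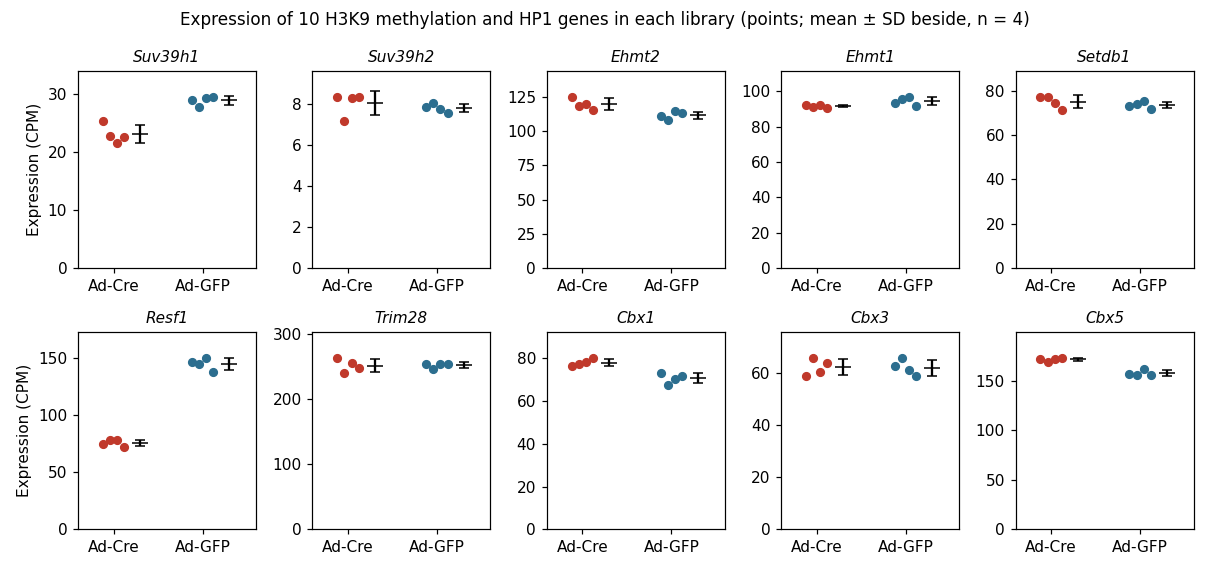
Expression of the 10 genes in CPM (vertical axis, from 0) in each Ad-Cre and Ad-GFP library, 1 point per library, with the mean ± SD (n = 4) beside the points. Resf1 lies at 72.3 to 78.1 CPM in Ad-Cre and 137.6 to 150.0 CPM in Ad-GFP, while the points of Suv39h2, Ehmt1, Setdb1, Trim28 and Cbx3 overlap.

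**Figure D2:**
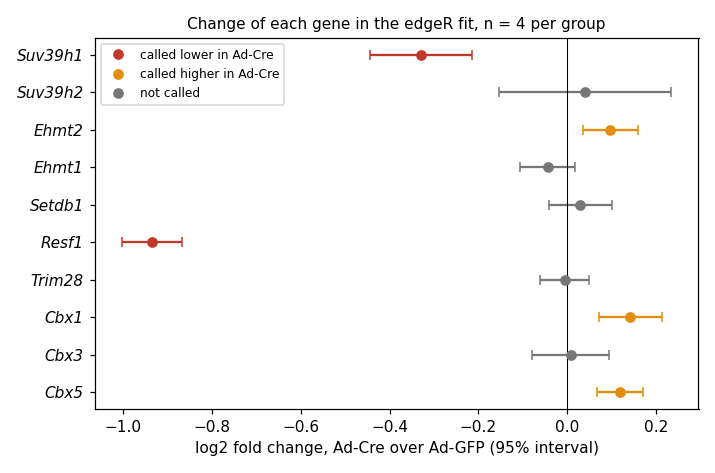
Log2 fold change of each gene, Ad-Cre over Ad-GFP, with its 95% interval from the edgeR fit (n = 4 per group), colored by the call. Resf1 at -0.94 and Suv39h1 at -0.33 stand to the left, Cbx1 at 0.14, Cbx5 at 0.12 and Ehmt2 at 0.10 lie to the right of 0, and the other intervals include 0.

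Set in order per length, Trim28 was the highest of the 10 and Suv39h2 the lowest in both groups. Trim28 averaged 77.0 ± 3.1 FPKM in Ad-Cre and 78.3 ± 1.2 FPKM in Ad-GFP, followed by Cbx1 at 46.7 ± 0.52 and 43.3 ± 1.3 FPKM (SD, n = 4 each). Cbx5, Cbx3, Ehmt2 and Ehmt1 came next, at means of 31.3 to 40.6 FPKM in Ad-Cre and 31.8 to 36.5 FPKM in Ad-GFP. Within that middle block each gene's range over libraries overlapped that of its neighbor, apart from Cbx3 and Ehmt2 in Ad-GFP. Within single libraries, Cbx5 was above Cbx3 in 4 of 4 Ad-Cre and 3 of 4 Ad-GFP libraries, and Cbx3 above Ehmt2 in 2 of 4 and 4 of 4. Ehmt2 was above Ehmt1 in 3 of 4 Ad-Cre and 2 of 4 Ad-GFP libraries. Resf1 was at 14.6 ± 0.96 FPKM in Ad-Cre, with a range that overlapped that of Setdb1 (16.2 ± 0.61 FPKM) although it was the lower in 4 of 4 libraries, and at 28.8 ± 1.2 FPKM in Ad-GFP, where its range overlapped that of Ehmt1, above it in 4 of 4 libraries, and lay above every Setdb1 library (16.04 ± 0.32 FPKM). Suv39h1 was ninth of the 10 in both groups, at 8.18 ± 0.58 FPKM in Ad-Cre and 10.0 ± 0.26 FPKM in Ad-GFP. Taken per kilobase of all annotated exons instead, 5 of the 10 genes changed rank in each group, while Trim28 stayed at the top and Suv39h1 and Suv39h2 at the bottom.

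**Figure D3:**
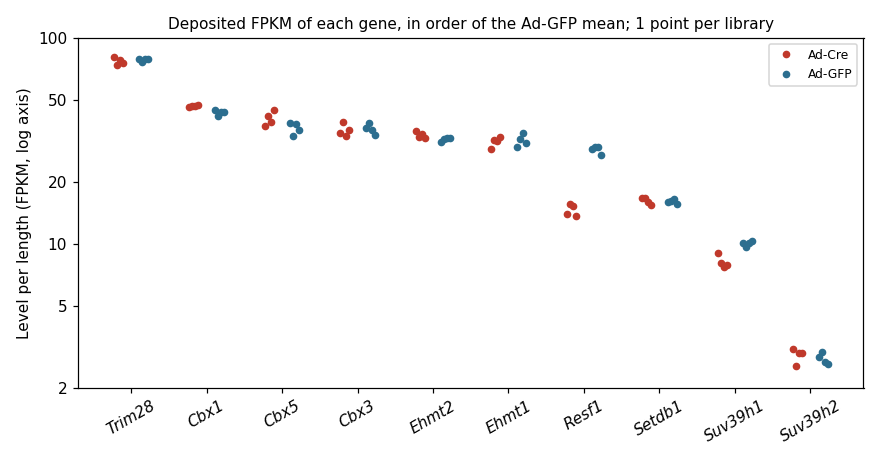
Deposited FPKM of each gene (log axis), 1 point per library, ordered by the Ad-GFP mean. Trim28 is highest at 73.5 to 80.7 FPKM in Ad-Cre and 76.5 to 79.1 FPKM in Ad-GFP, Suv39h2 is lowest at 2.55 to 3.08 and 2.60 to 2.98 FPKM, and Resf1 separates the groups most.

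A count and its FPKM together imply the transcript length the authors' software used for a gene in a library, which moves with the mix of transcripts it assigned. This length was computed after the data had been seen, for the 10064 genes with an FPKM of at least 1 and a count of at least 100 in every library. For Suv39h1 it was 2781, 2808, 2774 and 2829 bases in Ad-Cre and 2891, 2908, 2934 and 2899 bases in Ad-GFP. Every Ad-Cre library was shorter than every Ad-GFP library, and the length was 96.2% of Ad-GFP (log2 ratio -0.06 ± 0.008 SE, n = 4 per group). The annotation holds 5 Suv39h1 transcripts, of which 3 are coding, at 2707 to 3116 bases. Groups that do not overlap in this length occurred in 1 of the 10 genes and in 3.33% of the 10064. Limma called 0.0199% of the 10064 (2 genes) at an adjusted p of 0.05 and Suv39h1 was not one of them. The file gives no count by exon, so which part of the transcript differs was not tested.

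The other 9 genes overlapped in implied length. Trim28 and Setdb1 were nearly fixed, with coefficients of variation over the 8 libraries of 0.148% and 0.199%. Cbx5 and Ehmt1 varied most, by 6.53% and 5.83%. Their coding transcripts span 376 to 8803 bases for Cbx5 and 671 to 5953 for Ehmt1. The Resf1 length was 5132 ± 158 bases in Ad-Cre and 5070 ± 97 bases in Ad-GFP (SD, n = 4 each), and the groups overlapped.

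**Figure D4:**
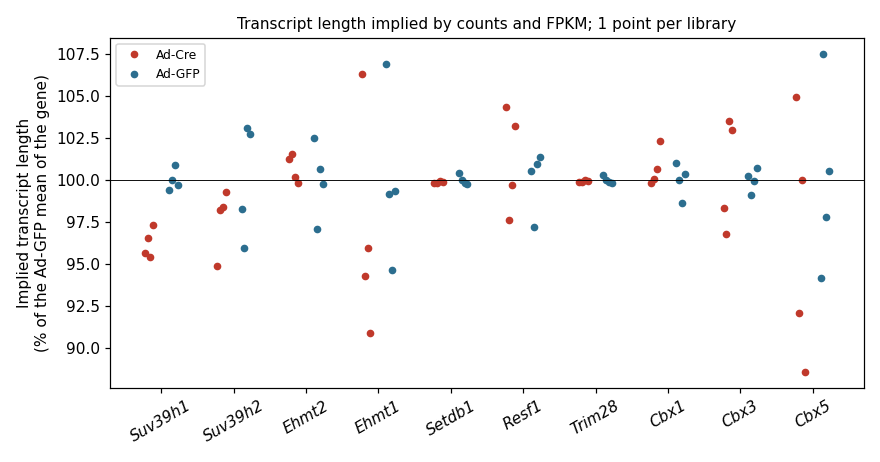
Transcript length implied by counts and FPKM, as a percentage of each gene's Ad-GFP mean (vertical axis), 1 point per library. The 4 Ad-Cre points of Suv39h1 (2774 to 2829 bases) lie below its 4 Ad-GFP points (2891 to 2934 bases), the points of Setdb1 and Trim28 sit on 100%, and those of Cbx5 and Ehmt1 scatter widely in both groups.

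Some of these genes share sequence or locus with others. Coding sequences of Suv39h1 and Suv39h2 are 63.4% identical where aligned and share no run longer than 26 bases, and the HP1 coding sequences are 72.2% to 72.6% identical with runs of at most 20 bases. Cbx3 shares runs of up to 389 bases with its 8 annotated processed pseudogenes. None of the 8 has a row in these data, so the Cbx3 counts are uncertain. The pseudogenes were searched for by GENCODE gene name, which gave none for Cbx1 or Cbx5. Copies under other names were not looked for. Exons of Suv39h1 overlap those of the antisense gene Gm14820 over 767 bases, those of Suv39h2 overlap Dclre1c over 357 and Gm13184 over 83, and those of Setdb1 overlap Gm37500 over 249 and Cers2 over 75. The 3 Gm genes have no row in these data. Since no source used here states the strand setting of the counting, reads of these pairs may be mixed.

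Both Cbx5 and Cbx3 start close to an hnRNP gene on the other strand, and both neighbors rose, where 19.8% of all genes tested were called higher. These neighbors were found after the data had been seen, as opposite-strand genes whose annotated start lies within 1000 bases of the RefSeq start. Hnrnpa1, an RNA-binding protein gene with its start 580 bases from that of Cbx5, averaged 520.5 ± 20.1 CPM in Ad-Cre and 473.8 ± 11.1 CPM in Ad-GFP (log2 fold change 0.14 ± 0.025 SE, n = 4 per group; edgeR adjusted p = 9.6e-05). Hnrnpa2b1, 722 bases from Cbx3, averaged 478.0 ± 23.1 CPM in Ad-Cre and 422.9 ± 16.6 CPM in Ad-GFP (0.18 ± 0.029; edgeR adjusted p = 2.6e-05), while Cbx3 itself was not called. The third such neighbor, the complement gene C2 beside Ehmt2, was at 1.13 CPM in Ad-Cre and 0.936 CPM in Ad-GFP and was not called. Cers2, whose exons overlap Setdb1, rose to 208.0 ± 3.3 CPM in Ad-Cre against 184.1 ± 6.4 CPM in Ad-GFP (edgeR adjusted p = 7.51e-06).

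Among the binding partners of these enzymes, changes went both ways. Of 9 listed SETDB1 cofactors, HUSH subunits and TRIM28 relatives, 8 were tested, 2 fell and 4 rose. Their median log2 fold change was 0.07, against 0.0041 over all genes tested, of which 20.5% were called lower and 19.8% higher. Atf7ip, which stabilizes SETDB1 in the nucleus, fell to 134.3 ± 4.5 CPM in Ad-Cre against 161.5 ± 2.4 CPM in Ad-GFP (edgeR adjusted p = 1.89e-08). Trim24, a bromodomain relative of TRIM28, fell to 74.2% of Ad-GFP (adjusted p = 2.51e-11). Pphln1, which encodes the HUSH subunit periphilin, rose to 114.0% of Ad-GFP (adjusted p = 0.000968). Without Ad-Cre replicate 3, 2 of the 8 were called higher. Of 6 G9a and GLP partners 2 fell and 1 rose. Zfp644, a zinc finger partner of the G9a complex, and Cdyl, a chromodomain adaptor, were at 93.9% and 90.0% of Ad-GFP (adjusted p = 0.0143 and 0.00934), and Zfp518b at 108.9% lost its call without Ad-Cre replicate 1 or 4 and without Ad-GFP replicate 1 or 3.

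Of 14 HP1 partners and heterochromatin assembly factors 7 fell and 2 rose, and the median log2 fold change was -0.09. The shares called over all genes tested were 20.5% lower and 19.8% higher. Uhrf1, which reads H3K9 methylation and hemimethylated DNA at the replication fork, fell to 76.6% of Ad-GFP (14.4 ± 0.72 CPM in Ad-Cre and 18.7 ± 1.2 CPM in Ad-GFP; edgeR adjusted p = 6.32e-05). Hells, a chromatin remodeler needed for DNA methylation of repeats, fell to 79.7% (adjusted p = 0.000131). Atrx, a remodeler of heterochromatin, rose to 110.2% (adjusted p = 8.69e-06). The rise of Atrx was the single one left without Ad-Cre replicate 1 or 2, or without Ad-GFP replicate 2 or 3, where the number called higher was 1. In the same samples 11 of 14 DNA replication genes and 14 of 14 mitosis genes fell, with median log2 fold changes of -0.45 and -0.80. The replication list summed to 304 to 315 CPM in Ad-Cre and 410 to 423 CPM in Ad-GFP, and the mitosis list to 102 to 113 and 184 to 197 CPM. Levels were 61.8% of Ad-GFP for the helicase gene Mcm6, 64.2% for Mcm4 and 67.0% for Rrm1, and Mki67, Top2a and Anln at 54.3%, 54.4% and 55.4% (edgeR adjusted p-values from 1.99e-13 to 2.41e-10). The part of proliferation in the levels of the 10 genes was not tested.

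Among enzymes that remove H3K9 methylation, 6 of 10 tested rose and 1 fell, of 11 listed, where 19.8% of all genes tested were called higher and 20.5% lower. Their median log2 fold change was 0.10, against 0.0041 over all genes tested. DESeq2 called 5 of the 10 in either direction, and limma-voom 7. Kdm3b, Kdm4c and Kdm7a, named after their values were seen, were called higher although their groups overlapped. Phf8, a demethylase of the lower methylation states, rose to 63.0 ± 0.37 CPM in Ad-Cre against 53.9 ± 0.79 CPM in Ad-GFP (edgeR adjusted p = 1.36e-05). Its relative Phf2 rose to 114.1% (adjusted p = 0.000395), and Kdm1a, the flavin-dependent demethylase LSD1, fell to 92.8% (adjusted p = 0.00162). Of the 4 other listed H3K9 methyltransferases, Prdm16 rose to 118.8% of Ad-GFP (adjusted p = 0.000207) and Setdb2, Prdm2 and Mecom were not called. Of 3 H4K20 methyltransferases, Kmt5a was not called. Kmt5b and Kmt5c encode enzymes that HP1 can recruit, and Kmt5b was at 109.2% (adjusted p = 0.00584) and Kmt5c at 89.5% (adjusted p = 0.0425). The Kmt5c call was lost without any one of Ad-Cre replicates 1, 2 and 4 or of Ad-GFP replicates 2, 3 and 4. Of 5 Polycomb CBX paralogs, which share the chromodomain but read another mark, only Cbx8 was called in this fit, at 121.6% (adjusted p = 0.0425), and not without Ad-Cre replicate 1, 3 or 4 or Ad-GFP replicate 1 or 3, nor with the replicate number as a block (adjusted p = 0.05645).

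Over these partner, demethylase, paralog and germline lists together, 53 genes were tested, of which 13 were called lower and 16 higher, against 20.5% and 19.8% of all genes tested. Without Ad-GFP replicate 3, 10 were called higher, and limma on log2(FPKM + 1) called 7 lower and 1 higher. Of the partner genes named above, Atf7ip, Pphln1, Zfp644, Zfp518b, Atrx, Uhrf1, Phf8, Prdm16, Kmt5b and Cbx8 were not called on FPKM. A list of 17 germline genes was drawn up here as targets of H3K9 silencing, and the mark was not measured in these samples. Of the 17, 5 had no count in any library and 3 had enough counts to be tested. edgeR called 0 of these 3, as did DESeq2 and limma-voom, and 1 had an unadjusted p under 0.05. That one was Tdrkh, a germline piRNA factor gene named after its value was seen, at 9.52 ± 0.87 CPM in Ad-Cre and 8.31 ± 0.60 CPM in Ad-GFP. Without Ad-GFP replicate 2, 1 of the 3 was called lower, Tdrd1, also named after its value was seen, at 0.501 ± 0.17 CPM in Ad-Cre and 0.826 ± 0.37 CPM in Ad-GFP.

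**Figure D5:**
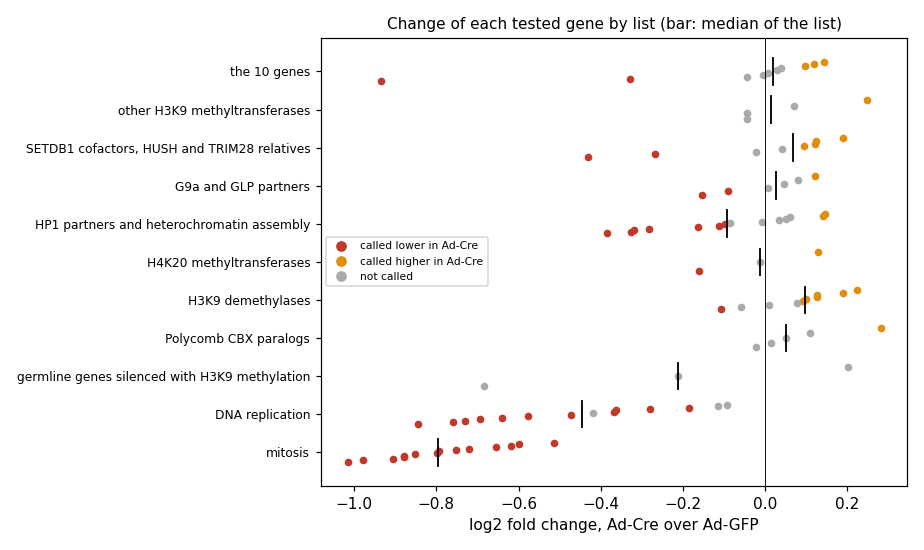
Log2 fold change, Ad-Cre over Ad-GFP, of every tested gene of each partner or proliferation list (1 point per gene; marker lists are not drawn), colored by the edgeR call, with a bar at the median of the list. The 10 genes have a median of 0.02, the mitosis and DNA replication lists lie furthest left of those drawn at medians of -0.80 and -0.45, and the H3K9 demethylases have a median of 0.10.

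Markers of other cell types differed between the groups beside these values, where 20.5% of all genes tested were called lower and 19.8% higher. Of 10 endothelial markers 9 were tested and 8 fell, and they summed to 63.4 to 73.3 CPM in Ad-Cre and 131 to 137 CPM in Ad-GFP, and those highest over the 8 libraries together were Cdh5 at 18.95 and 39.4 CPM and Pecam1 at 11.96 and 24.05 CPM. Of 10 macrophage and leukocyte markers 8 fell, with sums of 225 to 237 and 253 to 293 CPM, and those highest over the 8 libraries together were Lyz2 at 113.2 and 126.3 CPM and Csf1r at 33.0 and 40.0 CPM. Of 6 proximal tubule markers 4 were tested and 3 rose, with sums of 143 to 160 and 110 to 123 CPM, and those highest over the 8 libraries together were Ggt1 at 63.3 and 42.2 CPM and Havcr1 at 46.9 and 30.4 CPM. The tested marker that was not called, Lrp2, named after its value was seen, was at 36.6 CPM in Ad-Cre and 39.5 CPM in Ad-GFP. The proximal tubule markers not tested, Slc34a1 and Slc5a2, were nearly absent. Also named after their values were seen, they had 2 and 1 counts over all Ad-Cre libraries and 0 in Ad-GFP. Epithelial markers had 5 falls and 2 rises among 8, and fibroblast markers 5 falls among 8. No listed marker was at 0 in every library. Their part in the levels of the 10 genes was not tested.

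The genes whose profile over the 8 libraries came closest to that of Resf1 were Loxl4, Htr1b and Slc7a3. Closeness is the root mean square distance between log2(CPM over the gene's mean CPM), taken over 10682 genes of at least 5 CPM, and it was 0.058 for Loxl4, 0.062 for Htr1b and 0.064 for Slc7a3. Loxl4, a lysyl oxidase gene, was at 18.8 ± 1.4 CPM in Ad-Cre and 34.5 ± 1.3 CPM in Ad-GFP (SD, n = 4 each). For Suv39h1 the closest were Gys1 (0.036), Phf12 (0.040) and Plcb3 (0.041). Gys1, the muscle glycogen synthase gene, was at 93.7 ± 3.2 CPM in Ad-Cre and 116.1 ± 2.8 CPM in Ad-GFP. Group means were not removed before taking these distances, so genes with a like difference between the groups come out close. For Resf1 that difference is the value by which it was chosen. Shared regulation was not tested.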

How the data were processed

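RNA of 4 Ad-Cre and 4 Ad-GFP samples was sequenced by the authors, who deposited 1 table of 22322 genes. Per the file headers, it holds a whole-number count and an FPKM value, both made by the authors, for each gene and library. The authors' mean FPKM, log2 fold change and p-value columns were not used. The submitters' processing notes name GRCm38 and mm10. Not given in the sources used here: aligner, counting tool, strand setting and annotation. Loci came from GENCODE M21 (GRCm38).

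Counts were fitted with edgeR 4.0.16 (R 4.3.3): filterByExpr, TMM scaling and the two-sided quasi-likelihood F-test, with Benjamini-Hochberg adjustment over 13337 genes and a threshold of 0.05. The step was tested on simulated data. The standard error was taken as |log2 fold change| divided by √F. Implied length is the count over the FPKM, scaled so that libraries share a median gene, and was tested with limma 3.58.1. Coding sequences are the longest open reading frame of the coding transcripts, aligned with Biopython 1.88. Every pair of replicates differed beyond sampling noise (chi-square per degree of freedom 1.81 to 3.26). The members, lists and tests were chosen with earlier results of these data known. The genes named are the 10, up to 3 called genes of smallest p from each partner or proliferation list, the 2 most abundant over all libraries of each marker list, and the 3 profiles closest to Resf1 and to Suv39h1; others are said to have been found later. Alternatives were RLE and upper quartile scaling, no filter, at least 5 CPM, DESeq2 1.42.0, limma-voom, a replicate block, each library left out, limma on log2(FPKM + 1) and log2(FPKM + 0.1), and thinning every library to the smallest total, 15879244 counts.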

Additional observations from a re-analysis of the deposited data

Results flagged for a closer look

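Dixon's test on 4 libraries marked 7 of 108 sets of values, where chance alone marks about 1 in 20. Among the 10 genes, the lowest Ad-Cre library of Suv39h2 was at 7.19 CPM with the others at 8.31 to 8.39 CPM, and the lowest Ad-GFP library of Trim28 was at 246.2 CPM with the others at 253.9 to 254.9 CPM. Elsewhere, Cdyl had an Ad-Cre library at 39.2 CPM (others 37.3 to 37.6), Kdm1a one at 151.0 CPM (others 154.8 to 155.3) and Gys1 one at 98.5 CPM (others 91.9 to 92.5). In Ad-GFP, Trim24 had a library at 113.4 CPM (others 109.1 to 109.7) and Slc7a3 one at 36.4 CPM (others 32.3 to 32.8).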

How the results depend on the processing

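Resf1, Suv39h1 and Cbx1 kept their direction and call under every alternative run. These runs refit the same libraries, and the genes were chosen with this contrast known, Resf1 by its difference. The kept calls are thus a description of the processing and no independent support. On log2(FPKM + 1) and log2(FPKM + 0.1), limma called 3530 and 3520 genes, 1400 and 1393 of them higher. It then called 3 and 3 of the 10 genes, 1 and 1 of them higher, since Ehmt2 (log2 fold change 0.064 and 0.066) and Cbx5 (0.15 and 0.15) missed the threshold. Of the partner, demethylase, paralog and germline genes it called 7 and 7 lower and 1 and 1 higher, against 13 and 16. Upper quartile scaling and DESeq2 each called 10 of these higher. The cause was not tested. With each library left out, Ehmt2 ranged from 0.075 to 0.114, Resf1 from -0.96 to -0.91, Suv39h1 from -0.37 to -0.30, and the partner genes called higher from 10 to 16. Annotated exon length changed the rank of 5 genes in Ad-Cre and 5 in Ad-GFP. The Suv39h1 length ratio stayed between -0.06 and -0.05 without each library and under scaling by library totals, alternatives chosen after seeing the data.

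Same-numbered libraries correlated in their deviations from the group mean by 0.166, 0.140, 0.0922 and 0.0263 over 10692 genes. The numbers were not taken as pairs in the main fit because the labels state no pairing. With the replicate number as a block, 5390 genes were called, including 5 of the 10. Ad-Cre replicates 1, 2 and 3 each correlated best with their own number, while Ad-Cre replicate 4 correlated best with Ad-GFP replicate 3 (0.0476). Whether same-numbered libraries share an origin was not tested.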
